A study of Zea mays with 12 samples.

Results

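Endosperm of the maize hybrid B73xMo17 was compared with endosperm of its mother, the inbred line B73. The comparison was taken from the sample titles: all 3 arrays of B73xMo17 against all 3 arrays of B73, paired by biological replicate number, which makes 6 of the 12 arrays in the series. B73 and Mo17 are inbred lines from different breeding groups and are widely used as the parents of an experimental hybrid. The remaining arrays belong to the opposite cross Mo17xB73 and to the inbred Mo17, with 3 arrays each, and are used below as the other hybrid and the father. In the names of the crosses the female parent is taken to stand first, by maize convention; the labels do not state it. All kernels came from field-grown plants and were harvested 13 days after pollination. A replicate number stands for 1 of 3 crossing dates, on which every genotype was crossed within 30 minutes, and each array held RNA pooled from 6 ears. The labels differ on the size of a pool, giving 6 endosperms per ear in one place and 5 in another. No sample carries a transgene or a treatment, so the hybrid and its mother differ in the pollen parent alone, and both grew on ears of the same maternal genotype.

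Endosperm is the tissue that stores starch and zein proteins for the seedling and surrounds the embryo in the kernel. It is triploid: the central cell gives 2 maternal genome copies and the pollen gives 1 paternal copy. B73 endosperm therefore holds 3 copies of the B73 genome, and B73xMo17 endosperm holds 2 copies from B73 and 1 from Mo17. Some endosperm genes are imprinted, which means that the copy from one parent is transcribed more than the copy from the other. The comparison asks what a paternal Mo17 genome adds to B73 endosperm and what is lost with the B73 copy it takes the place of. If a gene were silent on the Mo17 copy and nothing else changed, its level would fall to 2 copies in 3, which is -0.585 on the log2 scale.

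The table held 17621 probe sets apart from controls, and 10708 of them passed a filter on dim signal and were tested. A probe set is a group of short probes that reports on 1 transcript or on a few related ones. Levels are MAS5 signal as deposited, multiplied so that all arrays had the same median. Differences are log2 of B73xMo17 minus log2 of B73, averaged over 3 pairs of arrays. Each is given with its standard error from a limma model with crossing date as a block. The model was fitted to all 12 arrays, so this standard error also reflects the spread among Mo17 and Mo17xB73 arrays. A probe set was called when its limma p, adjusted over all 10708, lay under 0.05. B73xMo17 replicates 1 and 2 were dim as deposited, with medians of 443 and 424 over the probe sets used for scaling, against 585 for B73xMo17 replicate 3 and 518 to 582 for the B73 arrays. Their hybridization spike-ins lay at -0.34 and -0.36 log2 from the mean of the 12 arrays, against 0.28 for the third B73xMo17 array and 0.03 to 0.06 for B73. After scaling, arrays correlated at 0.982 to 0.989 within B73xMo17, 0.985 to 0.987 within B73 and 0.958 to 0.968 between the genotypes. The starch synthesis genes summed to between 94478 and 105042 in B73xMo17 and between 88590 and 96013 in B73, and the zeins to between 75926 and 86834 in B73xMo17 and between 72884 and 83151 in B73, so both carried the defining transcripts of starchy endosperm. Of 8 embryo genes on the array, 4 passed the filter and 4 were too dim to test. The 4 tested ones summed to between 13162 and 15228 in B73xMo17 and between 13472 and 14467 in B73. This sum covers the brighter members alone, and whether it reflects embryo tissue in the samples was not tested.

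B73xMo17 endosperm differed from B73 endosperm in 2180 of 10708 probe sets, or 20.4%, of which 1096 were higher in the hybrid and 1084 were lower. The shares were nearly even, at 10.2% of all tested probe sets higher and 10.1% lower, but the sizes were not. The hybrid was higher by at least 2-fold in 254 probe sets and lower by at least 2-fold in 34; it was higher by at least 4-fold in 114 and by at least 8-fold in 40, and lower by those folds in 0 and 0. The median difference was 0.51 log2 among higher and -0.40 log2 among lower probe sets. Among the 1084 lower probe sets, the estimate was beyond the loss of 1 copy in 3 in 226 (20.8%) and not beyond it in 858. No test against that loss was made. Of the 2180 called probe sets, 2170 had the same direction on all 3 crossing dates, against 5614 of all 10708 tested. The calls rest on these same date differences, so the shared direction is no independent check of them. The count was 1061 without the date block (650 higher, 411 lower), 663 without both dim B73xMo17 arrays (416 higher, 247 lower), and 2164 on the deposited values without scaling, where the split was 429 higher against 1735 lower and the median over all tested probe sets was -0.20 in place of -0.01. In bulk tissue, fewer cells of a type and less RNA per cell cannot be told apart.

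**Figure D1:**
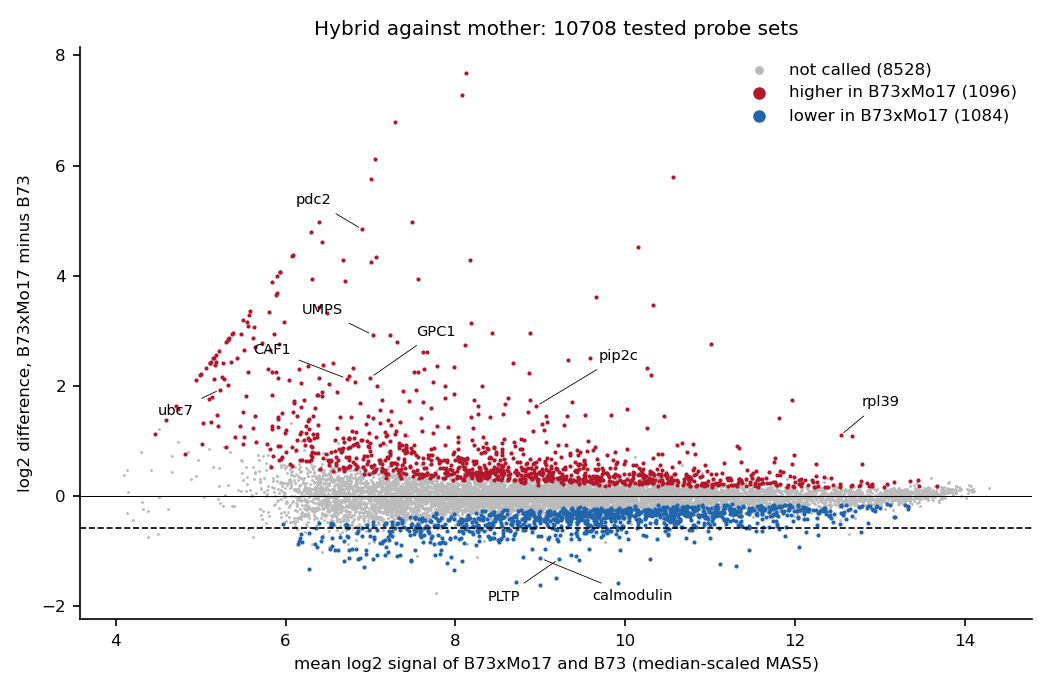
Log2 difference of B73xMo17 minus B73 for each tested probe set (vertical axis) against the mean log2 signal of both genotypes (horizontal axis, median-scaled MAS5 signal). Red points are the 1096 called higher in B73xMo17, blue points the 1084 called lower and grey points the 8528 not called; the dashed line at -0.585 marks the loss of 1 copy in 3. The upper side reaches 7.68 and the lower side -1.61 among called probe sets, and the highest red points lie at low to moderate mean signal.

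Large changes in either direction were more frequent among dim probe sets. Tested probe sets were put in order of mean level and cut into 5 equal classes. In the dimmest class 126 were higher in B73xMo17 by at least 2-fold, against 11 in the brightest. Those lower by at least 2-fold were 18 in the dimmest class and 0 in the brightest. The share called higher was 11.1%, 11.3%, 11.3%, 10.3% and 7.19% from the dimmest to the brightest class, and the share called lower was 6.40%, 8.69%, 11.4%, 13.6% and 10.6%. A total of 35 tested probe sets stood at the floor of 14.9 (the level to which dimmer signal was raised) on all 3 B73 arrays. With B73 at the floor, such a probe set could pass the filter on mean signal only through the other genotypes, so the filter favours gains here and their count is given as a description. Of the 35, 31 were higher in B73xMo17 and off the floor on all of its arrays, with mean signal between 32.5 and 1649.7 and a median of 107 in the hybrid, and between 126 and 3017 with a median of 271 in Mo17. Their measured folds, from 2.18 to 111 with a median of 7.17, are lower bounds, since B73 is only known to be at or under the floor. These probe sets have no gene name here. No tested probe set stood at the floor on all 3 B73xMo17 arrays, a count that the same filter limits.

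The highest called probe set of all, Zm.14705.1.S1_at, has no gene name. Its signal was 4129.7, 4121 and 3737 in B73xMo17, against 4.37, 33.1 and 10.1 in B73. In Mo17xB73 it read 6783, 5915 and 6504, and in Mo17 8795, 7739 and 8148. The difference from B73 was 7.68 ± 0.22 log2 (limma adjusted p 5.14e-10), with 2 of the 3 B73 arrays at the floor, and the order of the genotypes followed the number of Mo17 copies. Zm.14497.4.A1_at, also without a gene name, had the same order of genotypes. It read 3122, 3540.1 and 3474 in B73xMo17 and 1.52, 46.1 and 6.36 in B73 (7.28 ± 0.28 log2, adjusted p 8.29e-09), and again 2 B73 arrays lay at the floor.

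Of the 807 tested probe sets with a gene name, 172 were called, 71 higher and 101 lower in B73xMo17. The shares over all tested probe sets were 20.4% called, 10.2% higher and 10.1% lower. The largest gain with a gene name was that of a probe set assigned to pdc2, a pyruvate decarboxylase gene of ethanol fermentation. This probe set, Zm.14518.1.S1_at, read 534, 589 and 836 in B73xMo17, against 26.7, 8.65 and 28.0 in B73. In Mo17xB73 it read 1235, 1263 and 1439, and in Mo17 1875, 1555 and 2079.9. No hybrid array overlapped a B73 array, and the gain was 4.84 ± 0.16 log2 (adjusted p 1.69e-09), with 1 B73 array at the floor. The mean of the parents weighted 2 for B73 and 1 for Mo17 was 626 ± 95 (SD over 3 dates), and the hybrid lay 0.04 ± 0.27 log2 above it. The other probe sets assigned to pdc2 did not share this gain. Zm.10317.1.S1_at read 1842, 1636 and 2105 in B73xMo17 and 2189, 1987 and 2392 in B73 (-0.24 ± 0.11 log2, adjusted p 0.164), and only 65.9, 62.0 and 51.0 in Mo17. Zm.14518.1.S1_s_at read between 1065 and 1484 in B73xMo17 and between 959.8 and 1166 in B73 (0.19 ± 0.07 log2, adjusted p 0.0601). The 3 probe sets that the platform annotation assigns to pdc2 thus ranked the inbreds in 3 ways: B73 far below Mo17, B73 far above it, and nearly level. Whether all of them report on the same gene was not tested, so the gain is that of 1 probe set.

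UMPS, the gene of UMP synthase in pyrimidine synthesis, had the second largest named gain. Its probe set Zm.6787.1.A1_at read 329.9, 346 and 406 in B73xMo17, against 50.8, 55.6 and 37.4 in B73. The gain was 2.93 ± 0.16 log2 (adjusted p 1.36e-07). The hybrid was closer to its father, at 426, 442 and 528 in Mo17 (-0.37 ± 0.16 log2 for B73xMo17 minus Mo17, adjusted p 0.068), than to its mother, and it stood 0.94 ± 0.06 log2 above the weighted parental mean. The brighter UMPS probe set differed by 0.14 ± 0.11 log2 (adjusted p 0.402). GPC1, a cytosolic glyceraldehyde-3-phosphate dehydrogenase of glycolysis, showed a like contrast between its probe sets. The dim one read 268, 246 and 296 in B73xMo17 and 84.0, 59.3 and 45.0 in B73 (2.15 ± 0.18 log2, adjusted p 7.80e-06). The bright one read 7927, 7864 and 7381 in B73xMo17 and 6759.5, 5889.7 and 6579.8 in B73, a gain of 0.27 ± 0.05 log2 (adjusted p 0.00393).

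The plasma membrane aquaporins pip2c and pip2b, which conduct water across the cell membrane, were both higher in the hybrid. The pip2c signal was 505, 832 and 1580.5 in B73xMo17, against 227, 258 and 381 in B73 (1.63 ± 0.15 log2, adjusted p 1.51e-05). The pip2b signal was 118, 151 and 249 in B73xMo17, against 37.1, 61.3 and 97.3 in B73 (1.44 ± 0.13 log2, adjusted p 1.50e-05). For both genes the lowest hybrid array lay above the highest B73 array, and the gain held on each date. Of 12 tested aquaporins, 3 were higher and 0 lower, against 10.2% and 10.1% over all tested probe sets. The third was SIP1-2 (0.32 ± 0.07 log2, adjusted p 0.00777). The median of the family was 0.08, against -0.01 over all tested probe sets, and it turned to -0.12 on the unscaled values, on which SIP1-2 did not pass (adjusted p 0.539).

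Among brighter genes, rpl39, which encodes a protein of the large ribosomal subunit, read 8490.4, 9087 and 8603 in B73xMo17, against 3711, 3132 and 5754 in B73 (1.10 ± 0.14 log2, adjusted p 0.000254). Its second probe set gained 0.21 ± 0.06 log2 (adjusted p 0.0206). The remaining genes of the 12 largest named gains were CAF1 (2.13 ± 0.20 log2), a probe set assigned to ubc7, a ubiquitin-conjugating enzyme gene (1.93 ± 0.21), nph1, a blue light receptor gene (1.17 ± 0.16), pdi5, a protein disulfide isomerase gene (1.08 ± 0.15), pep7, a phosphoenolpyruvate carboxylase gene (1.00 ± 0.16) and ccp2, a cysteine protease gene (0.93 ± 0.14). Their adjusted p values ran from 2.15e-05 for CAF1 to 0.00127 for pep7. Without both dim B73xMo17 arrays the calls on nph1, pep7 and ccp2 were lost (adjusted p 0.069, 0.0821 and 0.0532). For ubc7, the called probe set was the dimmest of the 7 assigned to the gene, at 78.2, 72.4 and 69.7 in B73xMo17 and 16.6, 18.9 and 22.6 in B73, and the 5 probe sets of another stem (Zm.16785) lay between -0.01 and 0.10 log2 (the remaining one, at 1.10 ± 0.49, did not pass). The called probe set shares the ID stem Zm.34 with probe sets of the gamma zein gz27, and whether it reports on ubc7 was not tested.

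The losses were smaller. The deepest unnamed loss, Zm.18422.1.S1_at, read 288, 281 and 306 in B73xMo17, against 905, 820.2 and 959 in B73. In Mo17xB73 it read 981, 978 and 912, and in Mo17 330.4, 315 and 319. The loss of -1.61 ± 0.08 log2 (adjusted p 4.38e-08) exceeded that of 1 copy in 3. Each hybrid stood near its father: B73xMo17 minus Mo17 was -0.14 ± 0.08 log2 (adjusted p 0.14), while Mo17xB73 lay 1.57 ± 0.08 log2 above its mother Mo17 and its arrays overlapped those of B73. Zm.18511.1.S1_at read 597, 563 and 528 in B73xMo17 and 1382, 1749 and 1937 in B73 (-1.57 ± 0.20 log2, adjusted p 0.000258), with Mo17 lower still at 49.2, 38.0 and 67.6.

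The calmodulin gene, which encodes a calcium sensor, read 356, 311 and 374 in B73xMo17, against 693, 703 and 889 in B73. In Mo17xB73 it read 207, 174 and 280.5, and in Mo17 91.4, 80.6 and 73.3. The groups did not overlap, and the loss of -1.13 ± 0.15 log2 (adjusted p 0.000262) held in every setting tried. The hybrid was 0.62 ± 0.13 log2 below the weighted parental mean of 535 ± 71.1. PLTP, a phospholipid transfer protein gene, read 511, 396 and 319 in B73xMo17, against 1009, 1319 and 523 in B73 (-1.14 ± 0.22 log2, adjusted p 0.00441), and a second probe set fell by 0.96 ± 0.14 log2 (adjusted p 0.00054); the first did not pass without both dim B73xMo17 arrays (adjusted p 0.116). The gene et1, which is needed for normal plastids in kernels and seedlings, fell by 0.84 ± 0.13 log2 (adjusted p 0.00127); the call was lost without the date block (0.0538) and without both dim arrays (0.0592). The gene sig3, which encodes a sigma factor of the plastid RNA polymerase, read 94.8, 109.7 and 77.4 in B73xMo17, against 162, 155 and 144 in B73 (-0.72 ± 0.19 log2, adjusted p 0.0233). It read 3.23, 13.5 and 16.6 in Mo17, and the hybrid was 0.19 ± 0.21 log2 below the weighted parental mean of 106 ± 4.32. The call on sig3 was lost in 9 of 20 other settings. The gene cha101 fell by 0.72 ± 0.12 log2 (adjusted p 0.00119).

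**Figure D2:**
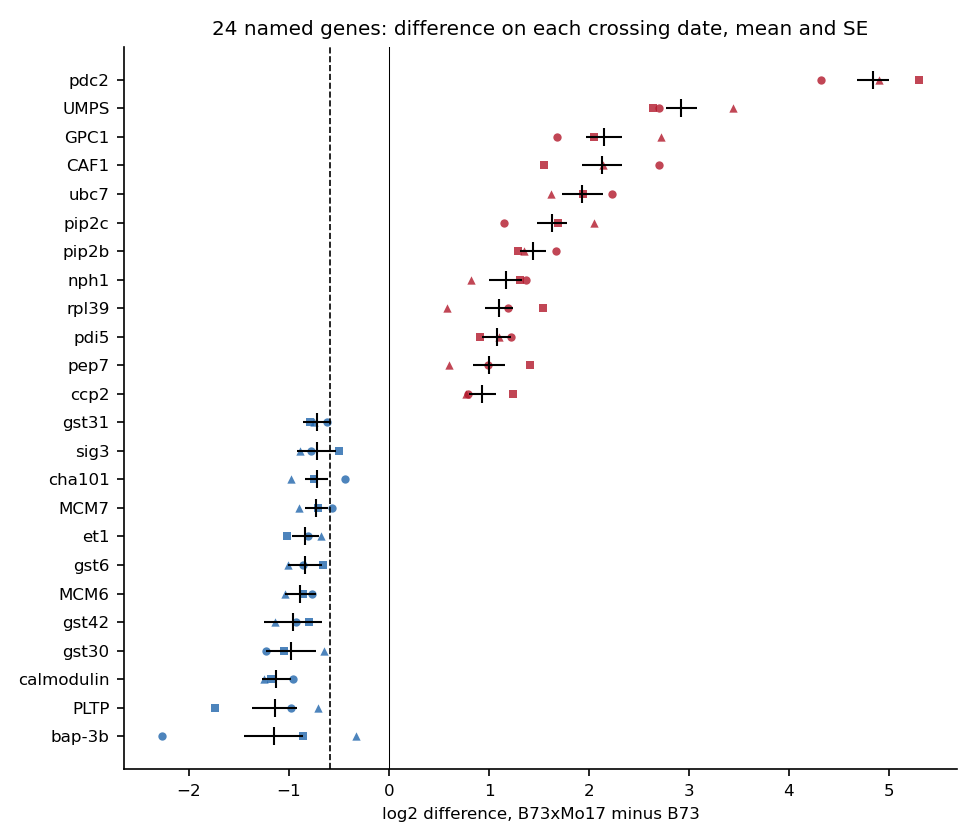
Log2 difference of B73xMo17 minus B73 (horizontal axis) for the 12 named genes with the largest gains and the 12 with the largest losses. Circles, squares and triangles are crossing dates 1, 2 and 3, the black tick is the limma estimate and the bar its standard error; the dashed line marks -0.585. The gains run from 0.93 for ccp2 to 4.84 for pdc2, the losses from -0.72 for gst31 to -1.15 for bap-3b, and the 3 dates of bap-3b are the most spread among the losses.

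The deepest named loss varied between dates. bap-3b, which encodes an antifungal protein of the basal transfer layer (the cells that take up nutrients at the base of the kernel), read 155, 31.6 and 138 in B73xMo17 and 747, 57.3 and 173 in B73. The groups overlapped, the date differences were -2.27, -0.86 and -0.33, and the loss of -1.15 ± 0.30 log2 (adjusted p 0.0184) did not pass without the date block (adjusted p 0.513). Signal of that layer was lowest on date 2 in both genotypes. BETL1 read 3183, 679 and 2949 in B73xMo17 and 4849, 671 and 2016 in B73, and the summed level of the layer's tested genes was 9115, 1946 and 8682 in B73xMo17 and 13962, 1856 and 5607 in B73. Of 9 tested genes of the layer, 0 were higher and 1 was lower, against 10.2% and 10.1% over all tested probe sets. The median of the layer was -0.01. Both tested genes of the embryo surrounding region, ESR1 (1.04 ± 0.54 log2, adjusted p 0.208) and ESR1c1 (0.50 ± 0.30 log2, adjusted p 0.276), failed the test; the summed level of these genes was 156, 138 and 357 in B73xMo17 and 288, 60.9 and 71.0 in B73.

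Glutathione transferases, which join glutathione to reactive compounds and detoxify them, made up 4 of the 12 deepest named losses. gst6 read 209.9, 196 and 124 in B73xMo17, against 381, 309 and 249 in B73 (-0.84 ± 0.17 log2, adjusted p 0.00537). gst30 read 415, 688 and 1190.2 in B73xMo17 and 972, 1427 and 1871 in B73 (-0.98 ± 0.25 log2, adjusted p 0.0176, and 0.0667 without the date block), and the groups overlapped while each date had the hybrid lower. gst42 read 298, 338 and 402 in B73xMo17, against 565, 590.2 and 888 in B73 (-0.96 ± 0.29 log2, adjusted p 0.0392, and 0.309 without the block). The gst42 level was higher in the father than in the mother, at 679.6, 1083 and 2832 in Mo17, so the hybrid lay 1.37 ± 0.49 log2 below the weighted mean of its parents and below each parent on every date. The calls on gst30 and gst42 each held in 13 of 21 other settings. The remaining one, gst31, differed among its own probe sets: one fell by 0.72 ± 0.14 log2 (adjusted p 0.00423, and 0.153 without the block), and the others stood at 0.15, 0.47 and -0.25 and did not pass. With 1 probe set per gene, the brightest, 2 of 12 tested transferases were higher (gst10 by 0.49 ± 0.13 and gst17 by 0.38 ± 0.08 log2) and 4 were lower (gst30, gst42, gst6 and GST3), against 10.2% and 10.1% over all tested probe sets, and the median was -0.10. On the unscaled values the counts were 0 higher and 6 lower.

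The list of DNA replication, cell cycle and histone genes had the lowest median of the 19 lists with 5 or more tested genes. Of 14 tested genes, 6 were lower in B73xMo17 and 1 was higher, against 10.1% lower and 10.2% higher over all tested probe sets, and the median was -0.30. Medians on the 3 dates were -0.24, -0.23 and -0.39. pcna1, which encodes the sliding clamp of DNA polymerase, read 2179, 2745 and 2160.1 in B73xMo17, against 2952, 3971 and 3351 in B73 (-0.53 ± 0.06 log2, adjusted p 6.44e-05). It was lower on each date, and its arrays overlapped those of Mo17 (2136, 2412 and 2120.2).

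MCM6 and MCM7 encode subunits of the replicative helicase. MCM7 read 596, 619 and 424 in B73xMo17, against 884, 1015 and 791 in B73 (-0.73 ± 0.11 log2, adjusted p 0.00111). All 3 tested probe sets of MCM6 fell, by 0.89 ± 0.16, 0.78 ± 0.13 and 0.52 ± 0.14 log2 (adjusted p 0.00229, 0.00129 and 0.0248). The brightest of them read 309, 291 and 292 in B73xMo17, against 432, 591 and 519.9 in B73, and on this probe set the hybrid was also below its father (360.5, 520.1 and 456 in Mo17, adjusted p 0.0023). The probe set with the largest loss overlapped the father, at 230, 275 and 176 in B73xMo17 and 161, 322 and 221 in Mo17. The remaining one read 258, 290 and 267 in B73xMo17, against 314, 372 and 441 in Mo17. The other lower genes were pcna2 (-0.31 ± 0.08), the cyclin gene cycD2 (-0.39 ± 0.08) and the linker histone gene H1 (-0.27 ± 0.06). RBR2, a retinoblastoma-related gene whose family restrains entry into DNA synthesis, was the member that rose, at 137, 171 and 105 in B73xMo17 and 81.4, 66.4 and 82.4 in B73 (0.82 ± 0.20 log2, adjusted p 0.0127). Without the date block 3 members were lower and 1 higher, and the calls on pcna2, cycD2 and H1 were lost (adjusted p 0.053, 0.11 and 0.34). The cyclins cyc2 and cyc3 (-0.57 ± 0.21 and -0.30 ± 0.11, adjusted p 0.0872 and 0.0882), cdc2, wee1, RBR1, hon102 and his2b5 did not pass.

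Of 49 tested chromatin regulators, 7 (14.3%) were lower and 1 (2.04%) was higher, against 10.1% and 10.2% over all tested probe sets, and the median was -0.07. The lowest was nfd101, at 2726, 3361 and 3383 in B73xMo17, against 3587, 5553 and 5039 in B73 (-0.57 ± 0.10 log2, adjusted p 0.00241). ssrp1, a subunit of the histone chaperone FACT, fell by 0.33 ± 0.07 log2 (adjusted p 0.00476), and sgb101 fell by 0.42 ± 0.08 log2 (adjusted p 0.00507). Without the date block 3 were lower and 0 higher. The beta tubulin genes went both ways: tub5 read 2046, 2609.7 and 2582 in B73xMo17, against 2894, 4392 and 4099 in B73 (-0.64 ± 0.06 log2, adjusted p 1.01e-05, and 0.0521 without the block), and tub3 and tub4 were both higher by 0.28 log2 (adjusted p 0.0214 and 0.0459, and 0.075 and 0.136 without the block). Of the 4 tested probe sets of tub6, 3 fell, by 0.45 ± 0.10, 0.50 ± 0.07 and 0.49 ± 0.08 log2 (adjusted p 0.01, 0.000473 and 0.000922; the first 0.091 without the block), and the remaining one stood at 0.11 ± 0.11 log2 (adjusted p 0.531).

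**Figure D3:**
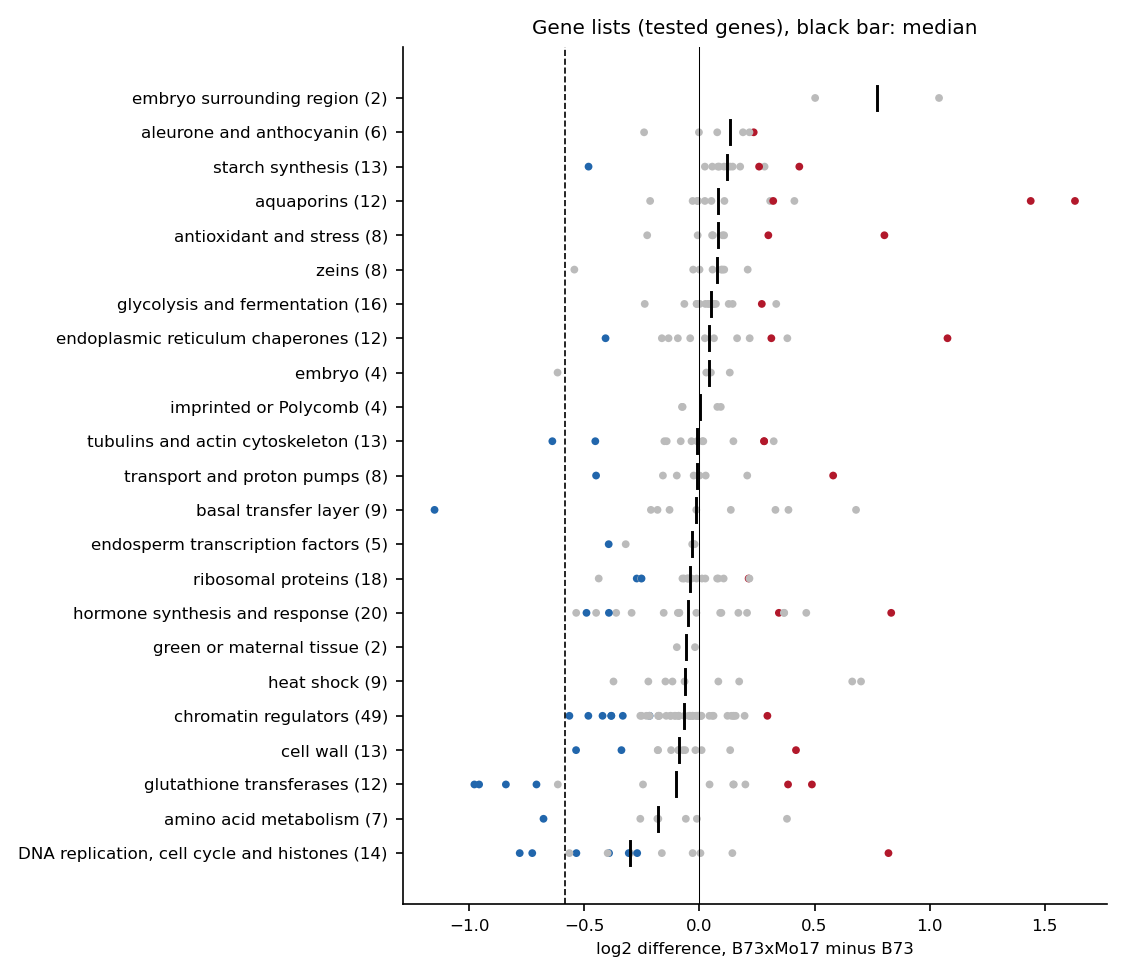
Log2 difference of B73xMo17 minus B73 (horizontal axis) for the tested genes of each of 23 lists, with the number tested in brackets. Each point is a gene by its brightest probe set, red where called higher in B73xMo17, blue where called lower and grey where not called; black bars are list medians and the dashed line marks -0.585. The replication and cell cycle list at the bottom has its median at -0.30, and no zein point is coloured.

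By their brightest probe sets, the main storage transcripts did not pass the test in either direction. Of 8 tested zeins, 0 were higher and 0 lower, against 10.2% and 10.1% over all tested probe sets. At an unadjusted limma p under 0.05, 1 was higher and 0 lower. The median was 0.08 and turned to -0.12 on the unscaled values. The delta zein dzs18 read 21195, 19539 and 14722 in B73xMo17 and 17463, 17198 and 16673 in B73 (0.09 ± 0.23 log2, adjusted p 0.812). In Mo17xB73 it read 4801, 3254 and 5377, and in Mo17 9.93, 26.5 and 1.92. The arrays of the hybrid overlapped those of B73 while the father had almost no signal, and the hybrid was 0.68 ± 0.24 log2 above the weighted parental mean of 11412. The alpha zein z1D_2 read 13379.8, 12673 and 14072 in B73xMo17 and 14906, 12132 and 13968 in B73 (-0.03 ± 0.54 log2), and 2134, 218 and 1857 in Mo17. The gamma zein gz50 differed by 0.06 ± 0.26 log2 and gz27 by 0.21 ± 0.08 log2 (adjusted p 0.907 and 0.105). A second bright gz27 probe set was higher on each date, at 12236, 12480 and 9966 in B73xMo17 and 9507, 9311 and 9866 in B73. A dimmer one read 1126, 1473 and 1726 in B73xMo17 and 1034, 1504 and 1533 in B73. Test results of these further gz27 probe sets are not given here. The alpha zeins z1C1_4 and z1C2 stood at 0.11 ± 0.36 and 0.10 ± 0.47 log2, z1C1_20 at 0.00 ± 0.41 and the dim z1C1_12 at -0.54 ± 0.38. With standard errors of this size, the model could not detect the loss of 1 copy in 3 for several zeins. These standard errors also carry the spread of Mo17 and Mo17xB73, where z1D_2 varied widely between dates. By date, B73xMo17 minus B73 was -0.16, 0.06 and 0.01 for z1D_2 and -0.18, 0.12 and 0.06 for z1C1_20. For gz50 it was -0.09, 0.11 and 0.14, so none of these values reached -0.585. On date 1, z1C2 (-0.65) and z1C1_12 (-1.10) lay beyond it. No test on the pairs alone is given for the zeins.

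Of 5 tested transcription factors of endosperm, ohp1 alone was called (lower), against 10.2% higher and 10.1% lower over all tested probe sets. ohp1, a partner of opaque2 in zein transcription, read 716, 753 and 802 in B73xMo17, against 1031, 936 and 1019 in B73 (-0.39 ± 0.08 log2, adjusted p 0.00446). It lay at 302, 303 and 275 in Mo17, and the hybrid matched the weighted parental mean of 761 ± 32.5 (-0.01 ± 0.11 log2). opaque2 itself (o2), the main activator of zein genes, read 2774, 3805 and 4916 in B73xMo17 and 3834, 3954 and 6665 in B73 (-0.32 ± 0.14 log2, adjusted p 0.137), and 329.9, 349 and 338 in Mo17. A second o2 probe set read 1775, 2124 and 2870 in B73xMo17 and 1538, 1711 and 3019 in B73. It read 1603, 1219 and 1614 in Mo17, so the o2 probe sets disagreed on the level of the father. The remaining factors PBF, Nkd1 and ohp2 stood between -0.03 and -0.02 log2.

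Of 13 tested starch genes, 2 (15.4%) were higher and 1 (7.69%) was lower, near the 10.2% and 10.1% over all tested probe sets. A positive difference was found in 12 of the 13, with a median of 0.12 that turned to -0.08 on the unscaled values. Over all 10708 tested probe sets, 5508 had a negative difference. Starch branching enzyme I (sbe1) read 4012, 4166 and 4793 in B73xMo17, against 2884, 3228 and 3491 in B73 (0.43 ± 0.07 log2, adjusted p 0.00109, and 0.201 on the unscaled values). The groups did not overlap, and the hybrid lay 0.35 ± 0.02 log2 above the weighted parental mean. Agpsemzm, a small subunit of ADP-glucose pyrophosphorylase, was higher by 0.26 ± 0.06 log2 (adjusted p 0.0165, and 0.0609 without the block). The sucrose synthase gene sus2 read 1585, 1806 and 1568 in B73xMo17, against 2426, 2284 and 2208 in B73 (-0.48 ± 0.08 log2, adjusted p 0.00154), and 755, 736 and 614 in Mo17.

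Polycomb genes, some of them imprinted in maize endosperm, did not pass in either direction (0 of 4 also at an unadjusted limma p under 0.05). Over all tested probe sets 10.2% were called higher and 10.1% lower. fie1, which is expressed from the maternal copies in maize endosperm, read 4397, 4605 and 4509 in B73xMo17 and 4455, 4689 and 5089 in B73 (-0.07 ± 0.05 log2, adjusted p 0.375). In Mo17xB73 it read 3008, 3442 and 3162, and in Mo17 3209, 3401 and 3479, so each hybrid stood near its mother. mez1, another gene with maternal expression in maize endosperm, read 1831, 2123 and 2041 in B73xMo17 and 2132, 2133 and 2042 in B73 (-0.08 ± 0.07 log2), against 1327, 1446 and 1226 in Mo17xB73 and 1302, 1442 and 1423 in Mo17. mez2 and fie2 stood at 0.08 ± 0.12 and 0.09 ± 0.13 log2.

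**Figure D4:**
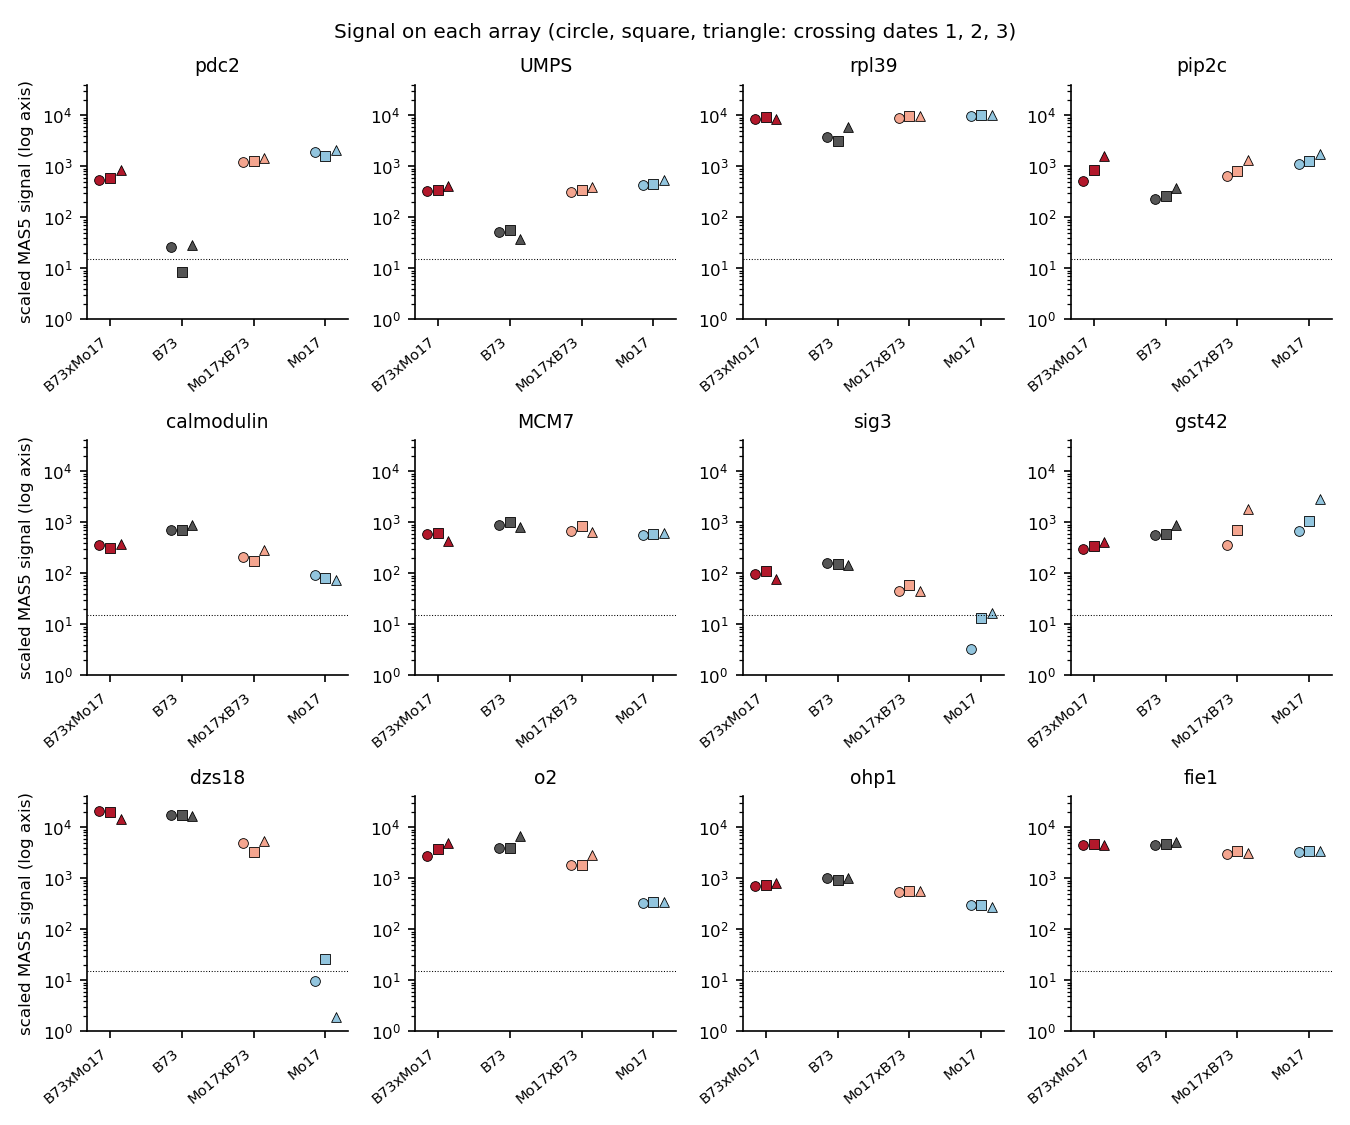
Median-scaled MAS5 signal on each array (vertical log axis) for 12 genes in B73xMo17, B73, Mo17xB73 and Mo17. Circles, squares and triangles are crossing dates 1, 2 and 3 and the dotted line is the floor. In the top row B73 lies below B73xMo17; in the middle row B73xMo17 lies below B73; dzs18 and fie1 in the bottom row overlap between B73xMo17 and B73.

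Among other genes that passed, the thioredoxin gene trh2 read 2493, 2081 and 2189 in B73xMo17, against 1312, 1453 and 1120.3 in B73 (0.80 ± 0.09 log2, adjusted p 0.000105). The proton pump genes mha1 and mha4 went opposite ways, mha1 at 906, 850.2 and 838 in B73xMo17 against 656, 527 and 557 in B73 (0.58 ± 0.08 log2, adjusted p 0.000579) and mha4 at -0.45 ± 0.14 log2 (adjusted p 0.043, and 0.23 without the block). The allene oxide synthase gene aos1, of jasmonate synthesis, was higher by 0.83 ± 0.12 log2 (adjusted p 0.00061). The auxin-binding protein gene abp4 was lower by 0.49 ± 0.12 log2 (adjusted p 0.0156); it read 1371, 1392 and 1224 in B73xMo17, against 1581, 2019 and 2032 in B73, and 69.4, 63.1 and 61.5 in Mo17. The glutamine synthetase gene gln2 fell by 0.68 ± 0.18 log2 (adjusted p 0.0228, and 0.0814 without the block). Among protein disulfide isomerases, pdi6 fell by 0.41 ± 0.06 log2 (adjusted p 0.0011) while pdi5 was higher. One probe set of pdi4 was higher by 0.31 ± 0.09 log2 (adjusted p 0.0304, and 0.0731 without the block), and another stood at -0.04 ± 0.07 log2 (adjusted p 0.749). For the remaining lists the shares over all tested probe sets were again 10.2% higher and 10.1% lower. Glycolysis and fermentation genes had 1 higher and 0 lower of 16 (GPC1), ribosomal proteins 1 higher and 2 lower of 18 (rpl39, against rpl30 and rpp2a-3), and hormone genes 2 higher and 2 lower of 20. Antioxidant genes had 2 higher and 0 lower of 8 (trh2 and apx), aleurone genes 1 higher and 0 lower of 6 (Sal1), and cell wall genes 1 higher and 2 lower of 13. Heat shock genes had 0 calls of 9 (2 higher and 1 lower at an unadjusted limma p under 0.05). Embryo genes had 0 of 4 and genes of green or maternal tissue 0 of 2, also without adjustment.

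The opposite cross gave a comparison with no array in common. Both comparisons came from the same model and used the same estimate of spread for each probe set. The overlap of their calls is therefore not one between independent tests. Mo17xB73 differed from its mother Mo17 in 2023 probe sets (18.9%), 1231 higher and 792 lower in the hybrid. A total of 877 probe sets were called in both crosses, which is 40.2% of the calls of B73xMo17 and 43.4% of those of Mo17xB73. Of these, 381 were higher in B73xMo17 and lower in Mo17xB73, and 463 the other way round, so 96.2% had opposite directions. Across the 10708 probe sets the differences correlated at -0.361 (Spearman -0.434), where the points share arrays within each axis. A test of the difference between the crosses called 3074 probe sets (28.7%).

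**Figure D5:**
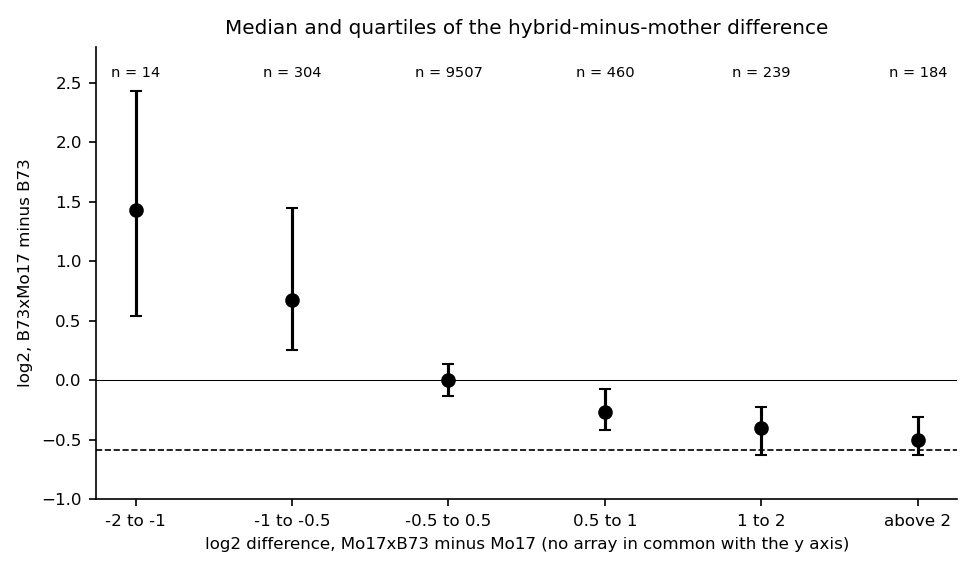
Median (points) and quartiles (bars) of the log2 difference of B73xMo17 minus B73, for probe sets grouped by the log2 difference of Mo17xB73 minus Mo17 (horizontal axis), which uses none of the same arrays; n is the number of probe sets and the dashed line marks -0.585. The medians run from 1.43 where Mo17xB73 was lower by 1 to 2 to -0.51 where it was higher by over 2, close to the dashed line.

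The size of the change in B73xMo17 followed that of the other cross. Where Mo17xB73 exceeded Mo17 by more than 2 log2 units, the median difference of B73xMo17 minus B73 was -0.51 (quartiles -0.63 and -0.31, 184 probe sets), with 0 called higher and 85 lower. Where Mo17xB73 was higher by 1 to 2 units the median was -0.40 (239 probe sets), and by 0.5 to 1 unit -0.27 (460 probe sets). On the other side, 304 probe sets that were 0.5 to 1 unit lower in Mo17xB73 than in Mo17 had a median gain of 0.67 in B73xMo17, with 185 called higher and 4 lower. In 14 probe sets that were 1 to 2 units lower the median was 1.43, and none was lower by more than 2 units. The 9507 probe sets within 0.5 had a median of 0.00, with 894 higher and 747 lower. These groups were formed after the data were seen and carry no test.

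A total of 33 probe sets were called in the same direction in both crosses, 12 higher in both hybrids than in their mothers and 21 lower in both. Few of these calls held without the date block, where 423 of the 426 probe sets called in both crosses had opposite directions. Of the named ones, the cellulose synthase gene CesA-8 was lower in both: it read 369, 327 and 277 in B73xMo17, against 444, 399 and 382 in B73 (-0.34 ± 0.10 log2, adjusted p 0.0373, and 0.0956 without the block), and 654, 811 and 719 in Mo17xB73, against 921, 963 and 875 in Mo17 (-0.34 log2, adjusted p 0.037). One probe set of expA4, an expansin gene of cell wall loosening, was higher in both. It read 255, 257 and 184 in B73xMo17, against 165, 128 and 164 in B73 (0.60 ± 0.15 log2, adjusted p 0.016, and 0.061 without the block). In Mo17xB73 it read 346, 312 and 245, against 149, 149.8 and 114 in Mo17 (1.12 log2, adjusted p 0.00025). For expA4 the probe sets disagreed, since the brightest one was higher in B73xMo17 (0.42 ± 0.11 log2) and lower in Mo17xB73 (-0.41 log2) than in the mother.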

How the data were processed

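Total RNA was labelled in 1 amplification cycle and measured on one-colour Affymetrix arrays, per the labels' protocols. The authors deposited 1 intensity value per probe set and array, named MAS5 signal in the submitters' processing notes, on a linear scale. The scaling target, the software version, detection calls and any filter were not found in the labels or headers. The table held 17734 probe sets, of which 113 controls were left out. Each array was multiplied so that the medians of the probe sets with mean signal above the pooled 40th percentile were equal (factors 1.25, 1.30 and 0.943 for B73xMo17 and 1.01, 0.947 and 1.06 for B73). A floor was set at the pooled 20th percentile (14.9), log2 was taken, and probe sets with a mean above the pooled 40th percentile (72.3) were tested. Per-array values in the text are scaled and not raised to the floor.

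In R 4.3.3, limma 3.58.1 was fitted to all 12 arrays with 4 genotype means and crossing date as a block (6 residual degrees of freedom). Variances were moderated by empirical Bayes with a trend on intensity, and two-sided p values were adjusted over 10708 probe sets by the Benjamini-Hochberg method. The script was tested on simulated data. The labels tie the replicate number to the crossing date. After removal of genotype means, B73xMo17 and B73 arrays of the same number correlated at 0.547, 0.248 and 0.399. The mean of -0.199 for different numbers follows largely from that removal and is no separate support for the pairing. The number of arrays limits the precision, and p values measure the spread between pools of ears.

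Probe sets were named through the platform annotation and RefSeq: 1377 of 1452 with 1 gene matched a current gene and 1270 had a usable name. Named genes are the 12 highest and 12 lowest called with the same direction on all dates (for each gene the probe set with the largest difference), up to 3 called members of each list, every tested zein, endosperm factor and Polycomb gene, and the 2 highest and 2 lowest called probe sets without a name. Within lists each gene counts by its brightest probe set. Other genes named in the text (the other members of the replication, aquaporin, transferase and basal layer lists, and further probe sets of named genes) were chosen after their values were seen. The members, lists and rules were chosen with earlier results of these data known. Whether sequence differences under the probes shift the signal of either inbred was not tested, and neither sequences nor gene positions were used here. Alternatives covered scaling, floor, filter, block, variance model and left-out arrays.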

Additional observations from a re-analysis of the deposited data

How the results depend on the processing

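Of the 2180 calls, all kept their direction in each alternative that tested them, except that 2148 did on the deposited values without scaling, 2179 with trimmed mean scaling and, since fewer were tested, 1566 with the filter at the pooled 60th percentile. Without the replicate block the counts were 1061 called, 650 higher, 411 lower, 148 beyond the loss of 1 copy in 3, 1184 for Mo17xB73 minus Mo17, 426 called in both crosses and 423 of those in opposite directions. Without both dim B73xMo17 arrays, where the lone B73xMo17 array is assumed to vary like the other groups, they were 663 called, 416 higher, 247 lower, 142 beyond the loss of 1 copy in 3, 349 in both crosses and 343 in opposite directions. On the deposited values without scaling they were 429 higher, 1735 lower, 761 beyond the loss of 1 copy in 3 and 1262 for Mo17xB73 minus Mo17. Without the filter 690 were lower, and the filter at the pooled 60th percentile left 98 beyond the loss of 1 copy in 3. Leaving out 1 array or 1 date gave 1046 to 1850 called, 667 to 929 higher, 379 to 930 lower, 174 to 297 beyond the loss of 1 copy in 3, 945 to 2094 for Mo17xB73 minus Mo17, 300 to 770 in both crosses and 290 to 728 in opposite directions. The lowest count of calls came without crossing date 3 (1046) and, for a single array, without B73xMo17 replicate 2 (1310). Date 1, date 2 and B73 replicate 1, left out in turn, gave 1210, 1379 and 1393. The cause was not tested, beyond the fewer arrays. Of the 61 called named entries, 42 passed without the replicate block, 49 on the unscaled values and 30 without both dim arrays, and 0 reversed in any of 21 alternatives. Signal near the floor limits gains of dim probe sets to lower bounds.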
